A study of Drosophila melanogaster with 12 samples.

Results

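The nuclear genes of respiratory complexes II to V were taken as every gene of the isoform table whose name starts with Sdh, UQCR-, COX or ATPsyn, with the mitochondrially encoded genes left out. This gave 41 genes of 13962 named genes in the table, and 93 isoforms of 30738. Of the 41 genes, 28 encode subunits, 12 carry a name that marks them as a "-like" paralog of a subunit, and 1, *Sdhaf3*, encodes an assembly factor. Complex II had 7 of the genes, complex III had 8, complex IV had 11 and complex V had 15.

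The data are nanopore direct RNA sequencing of polyA-enriched RNA from heads of adult *Drosophila melanogaster* at day 10 of adulthood. Controls were elav-Gal4/+ and tau transgenic *Drosophila* were elav-Gal4/+;UAS-tauR406W/+, with 3 libraries of each genotype and 500 heads in the pool behind each library. Both genotypes carry the elav-Gal4 driver, which switches on a linked gene in neurons, and the tau genotype adds a human tau transgene with the R406W mutation of inherited frontotemporal dementia. Tau was therefore driven in neurons alone, whereas the RNA came from every cell of the head. Other differences of genetic background between the genotypes cannot be told apart from tau. The paper's methods give male and female flies in equal number, and the sex make-up of each pool was not tested here. The level of the human transgene was not analysed here.

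Complexes II to V sit in the inner membrane of the mitochondrion. Complex II (succinate dehydrogenase) passes electrons from succinate to ubiquinone, complex III passes them on to cytochrome c and pumps protons, complex IV (cytochrome c oxidase) hands them to oxygen and pumps protons, and complex V (ATP synthase) lets the protons flow back to make ATP. Complexes III, IV and V combine nuclear subunits with a few made from mitochondrial DNA, while complex II is nuclear throughout. Neurons and photoreceptors depend heavily on this pathway, and in *Drosophila* many of the subunits have a duplicate gene that is expressed mainly in the testis.

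Levels are given as TPM, the share of a library's assigned reads scaled to a fixed total, summed over the isoforms of a gene. In this method 1 read stands for 1 RNA molecule and no division by transcript length is made. A level in TPM can therefore be set beside that of another gene as an estimated share of the assigned reads. The assigned reads were recovered from the commonest low value of each library, taken as the worth of 1 read. They ran from 573001 to 910700 in the control libraries and from 684408 to 1329914 in the tau libraries, and 3 reads were worth 2.26 to 5.24 TPM. Tau library 1 stood apart from the others on the first principal component of the 8960 tested genes, with a score of 48.2 against -19.6 to -0.311 in the other 5 libraries. Among the head markers, *nSyb* of synaptic vesicles lay between 222 and 360 TPM, whereas *elav* itself was listed at 0 to 2.63 TPM, below 3 reads in all 6 libraries. The *ninaE* rhodopsin of photoreceptors and yolk protein genes of the fat body were also present, so these are whole heads and not neurons alone, and in such bulk samples fewer cells of a type cannot be told apart from less RNA per cell.

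The subunit genes were among the abundant transcripts of the head. Together the 41 genes made up 1.78% of all TPM in controls and 1.90% in tau transgenic *Drosophila*. Of the 28 subunit genes, 21 had a control mean of at least 500 TPM, 5 lay from 300 to under 500 TPM and 2 lay lower. The highest was *ATPsynC*, which encodes the c subunit of the membrane rotor, at 2140 ± 177 TPM in controls (SD, n = 3). The lowest was *SdhD*, a membrane anchor of complex II, at 69.4 ± 6.68 TPM (SD, n = 3). Replicates agreed closely for the subunits: the median coefficient of variation over the control libraries was 5.79% for their gene sums, where counting error alone gives 4.98%. The paralogs were low throughout, with control means of 0 to 27.4 TPM.

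**Figure D1:**
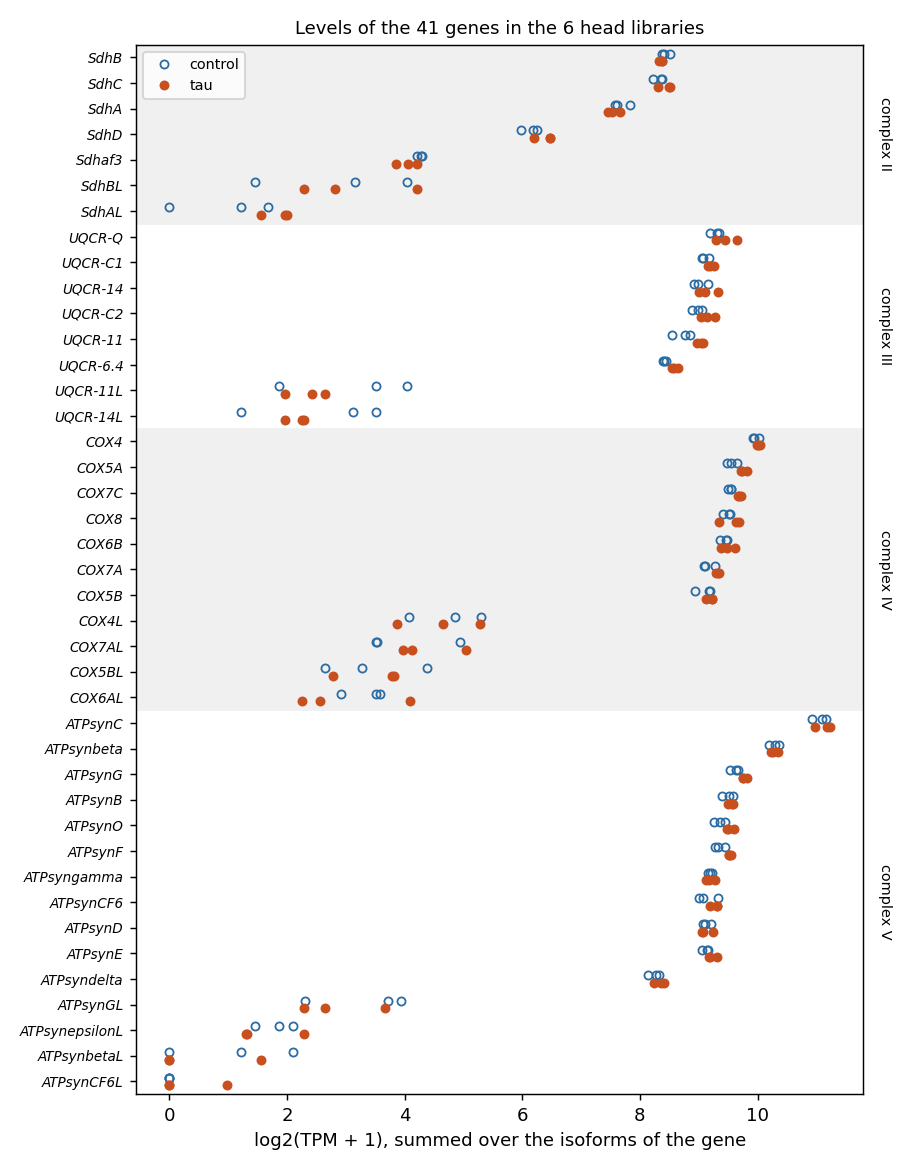
Each row is a gene, ordered within its complex by control mean, and each point is a library on a log2(TPM + 1) axis, with open blue circles for the 3 control and filled orange circles for the 3 tau libraries. The subunits lie between *SdhD* at 69.4 TPM and *ATPsynC* at 2140 TPM in controls with both genotypes close together, and the paralogs lie at 0 to 27.4 TPM with a wide spread among libraries.

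No gene of the set passed the test between tau transgenic *Drosophila* and controls. Of the 41 genes, 37 had a mean of at least 5 TPM and were tested, together with all other such genes, by limma on log2(TPM + 1), with Benjamini-Hochberg adjusted p of 0.05 or less as the threshold. The count was 0 of 37, where 1.08% of all 8960 tested genes passed (57 higher and 40 lower in tau). At an unadjusted limma p under 0.05 there was 1 of 37, against 8.15% of all tested genes. Among 307 other genes with a mean of 300 to 1300 TPM, where 25 of the members lie, there were 102. A second limma fit without the mean-variance trend also gave 0 of 37, with 0 under an unadjusted p of 0.05. The smallest adjusted p was 0.468, for *UQCR-11*.

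The subunit genes nevertheless sat mostly on the higher side in tau heads, by small amounts. The fitted log2 change was positive for 23 of 28 subunits, with a median of 0.11, while 45.3% of all tested genes had a positive change and their median was -0.04. Of other genes with a mean of 300 to 1300 TPM, where most subunits lie, 55.4% had a positive change. All 3 tau libraries lay above all 3 control libraries for 9 of the 37 tested genes (all 9 of them subunits), where 6.09% of all tested genes did, and for 0 of 37 they lay below, where 6.93% did. These 9 were *ATPsynE*, *ATPsynF*, *ATPsynG*, *ATPsynO*, *COX5A*, *COX7A*, *COX7C*, *UQCR-11* and *UQCR-6.4*. For any single gene such a separation gives p = 0.1 in the exact two-sided permutation test of 3 against 3 libraries, the smallest value this design allows. Without control library 1 or without tau library 1 the count was 15 of 37, with 12.5% and 13.8% of all genes separating in that way. The count below was 4 of 37 without control library 2, where 14.3% of all genes lay below, 2 of 37 without tau library 1 (10.2% of all genes), and 0 or 1 when any of the other 4 libraries was left out.

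In the median, the subunit changes were about the size of their standard errors. Both had a median of 0.11 on the log2 scale, and 27 of 28 95% intervals held 0. The intervals together spanned log2 changes of -0.42 to 0.64, or 0.746-fold to 1.56-fold. Over all 37 tested genes the median log2 change was 0.10, and without control library 3, which held the lowest of its genotype for 16 of 28 subunits, it was 0.04, against a median of -0.07 over all genes in the same fit. Without tau library 1, which stood apart, the medians were 0.11 for the members and 0.03 for all genes.

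**Figure D2:**
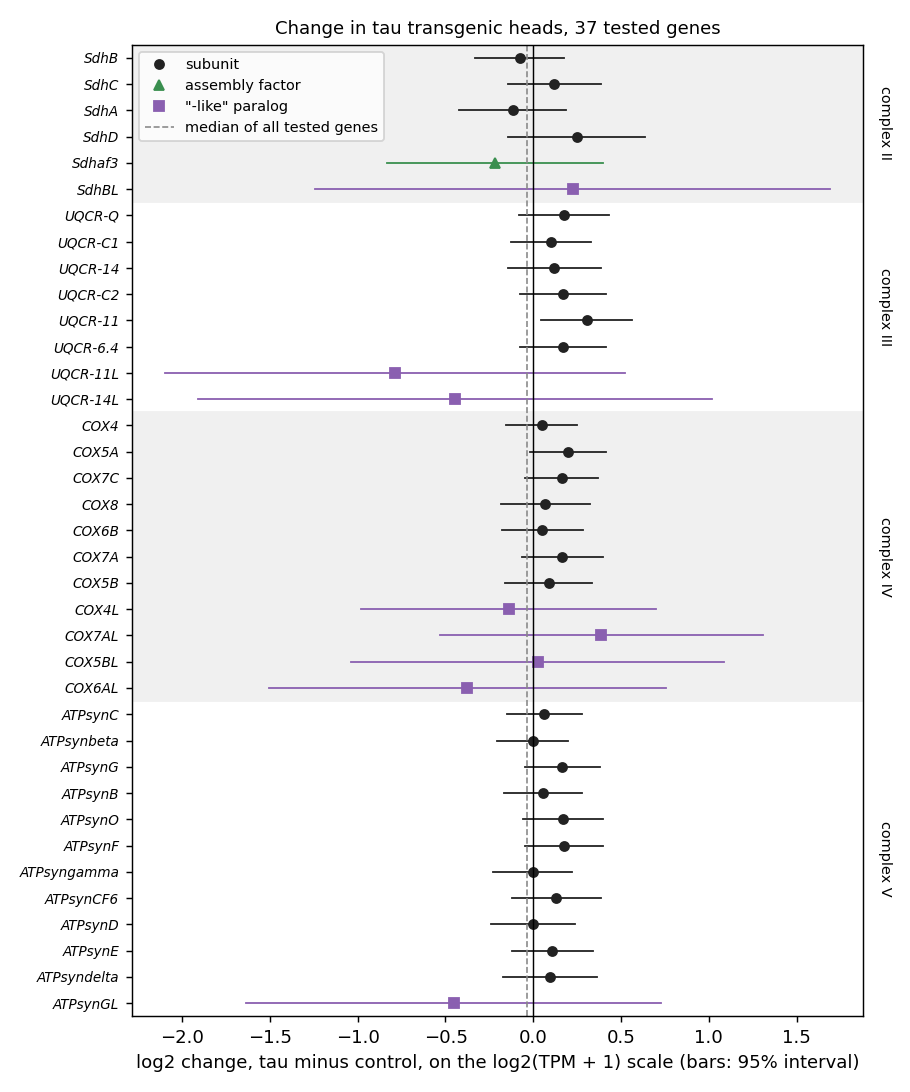
Points are the fitted log2 changes of the 37 tested genes (tau minus control, n = 3 libraries each) and bars their 95% intervals, with black circles for subunits, purple squares for paralogs and a green triangle for the assembly factor. The dashed line marks the median of all 8960 tested genes at -0.04; 36 of the 37 intervals hold 0, the exception being *UQCR-11*, and the paralog intervals are the widest.

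Genes of comparable abundance give a closer setting than all genes, because low transcripts carry more counting error. In a window of 300 to 1300 TPM over all libraries, chosen after the values were seen, there were 25 members and 307 other genes. The median log2 change was 0.12 for the members and 0.03 for the other genes, and it was positive for 84% of the members and 55.4% of the others. All tau libraries lay above all controls for 36.0% of the members and 17.9% of the others. In the same window 15 of the other genes were called higher and 8 lower by limma, and 0 of the 25 members. An unadjusted limma p under 0.05 was found for 102 of the 307 others and 1 of the 25 members.

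Complex II showed no common direction. Its flavoprotein *SdhA* had 189, 226 and 194 TPM in the control and 184, 175 and 201 TPM in the tau libraries (log2 change -0.12, SE 0.141). *SdhB*, the iron-sulfur subunit and the highest gene of the complex, had 366, 329 and 340 TPM in controls and 330, 329 and 320 TPM in tau (log2 change -0.08, SE 0.117, limma adjusted p = 0.958). The genotypes overlapped for both catalytic subunits, with values slightly lower in tau. The membrane anchor *SdhD* had the largest positive change of the complex, from 74.7, 61.9 and 71.6 TPM to 87.7, 72.2 and 87.8 TPM (log2 change 0.25, SE 0.181, limma adjusted p = 0.834). The other anchor, *SdhC*, had a log2 change of 0.12, again with overlapping libraries. *Sdhaf3*, a factor known from yeast and *Drosophila* for helping the iron-sulfur subunit mature, had 18.7, 18.4 and 17.5 TPM in controls and 17.5, 13.5 and 15.6 TPM in tau, the most negative log2 change among the tested genes of the complex (-0.22, SE 0.285). Summed over its 7 genes, complex II had 995, 941 and 951 TPM in controls and 956, 962 and 988 TPM in tau, a ratio of means of 1.01.

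Complex III had the largest shift of the summed levels. Its genes summed to 3077, 2968 and 2869 TPM in controls and 3372, 3342 and 3299 TPM in tau, a ratio of means of 1.12, with no overlap of the libraries. All 6 of its subunits had a positive change, with a median of 0.17 on the log2 scale. The tau libraries lay wholly above for 2 of the 6, against 6.09% of all tested genes and 17.9% of other genes at 300 to 1300 TPM. *UQCR-11*, the fly counterpart of the acidic hinge subunit that meets cytochrome c1, had 460, 436 and 372 TPM in controls and 538, 522 and 501 TPM in tau. The lowest tau library thus lay above the highest control library. Its log2 change was 0.30 (SE 0.119, 95% interval 0.05 to 0.56), with an unadjusted limma p of 0.0243 and an adjusted p of 0.468 that lay between 0.303 and 0.886 over the alternatives tried. *UQCR-6.4*, a small subunit, had the tightest controls of the set, at 340, 336 and 347 TPM, against 381, 400 and 371 TPM in tau (log2 change 0.17, SE 0.114, limma adjusted p = 0.804). *UQCR-Q*, the highest gene of the complex, had 635, 649 and 581 TPM in controls and 624, 693 and 800 TPM in tau, so its positive change of 0.18 came with overlapping libraries. The core proteins *UQCR-C1* and *UQCR-C2*, which face the matrix, had log2 changes of 0.10 and 0.17, and *UQCR-14* had 0.12.

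**Figure D3:**
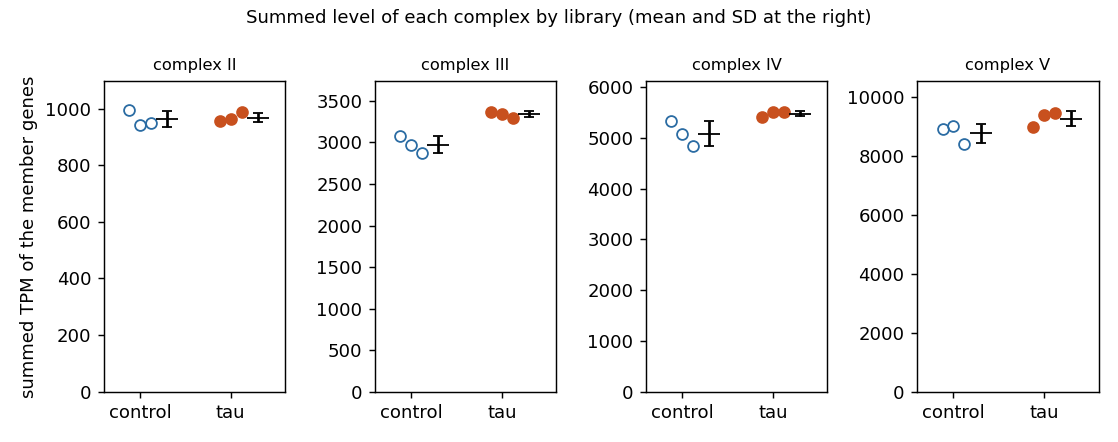
Points are the summed TPM of the member genes of each complex in each library, on axes that start at 0, and the bar at the right of each group is the mean with its SD (n = 3). The libraries of complexes III and IV do not overlap between genotypes (ratios of means 1.12 and 1.08), those of complexes II and V do (1.01 and 1.06). The sums were not tested.

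Complex IV had values on the same side by less. The sums over its 11 genes were 5330, 5065 and 4836 TPM in controls and 5416, 5510 and 5499 TPM in tau, a ratio of means of 1.08. Each of its 7 subunits had a positive log2 change, from 0.05 to 0.20. The tau libraries lay wholly above for 3 of the 7, against 6.09% of all tested genes and 17.9% of other genes at 300 to 1300 TPM. *COX5A*, one of the nuclear subunits that surround the catalytic core, had 799, 749 and 712 TPM in controls and 897, 850 and 845 TPM in tau (log2 change 0.20, SE 0.10, limma adjusted p = 0.677). *COX7C* had 743, 748 and 717 TPM in controls and 808, 838 and 824 TPM in tau, both narrow ranges (log2 change 0.16, SE 0.097, limma adjusted p = 0.767). *COX7A*, with 618, 550 and 543 TPM against 650, 644 and 624 TPM, was the other subunit without overlap. The highest gene of the complex, *COX4*, had 1043, 966 and 981 TPM in controls and 1056, 1021 and 1012 TPM in tau, a log2 change of 0.05 (SE 0.094) with overlapping libraries. *COX8*, *COX6B* and *COX5B* overlapped likewise, with log2 changes of 0.07, 0.05 and 0.09.

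Complex V had both genes near no change and genes that separated. Its 15 genes summed to 8901, 8996 and 8395 TPM in controls and 8961, 9360 and 9446 TPM in tau (ratio of means 1.06), with overlap. The catalytic beta subunit *ATPsynbeta* had 1169, 1311 and 1250 TPM in controls and 1229, 1197 and 1294 TPM in tau, with a fitted log2 change of -0.003 and a 95% interval of -0.21 to 0.20. The gamma subunit of the central stalk, *ATPsyngamma*, and *ATPsynD* of the peripheral stalk were as close to 0, at -0.004 and -0.001. For these 3 genes the direction of the change carries no information.

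The subunits of complex V that separated were *ATPsynO*, the peripheral stalk protein that corresponds to the mammalian oligomycin sensitivity-conferring protein, and the membrane subunits *ATPsynE*, *ATPsynF* and *ATPsynG*. They were 4 of its 11 subunits, against 6.09% of all tested genes and 17.9% of other genes at 300 to 1300 TPM. *ATPsynF* had the largest positive change of the complex, from 643, 616 and 696 TPM in controls to 728, 747 and 728 TPM in tau (log2 change 0.17, SE 0.103, limma adjusted p = 0.757). *ATPsynG* had 790, 807 and 738 TPM in controls and 859, 903 and 857 TPM in tau (log2 change 0.17, SE 0.098). *ATPsynO* had 692, 658 and 614 TPM in controls and 776, 720 and 712 TPM in tau (log2 change 0.17, SE 0.104). In each of these the tau libraries began just above the highest control. The abundant *ATPsynC* did not separate, with 2194, 2284 and 1943 TPM in controls and 2003, 2303 and 2408 TPM in tau (log2 change 0.06, SE 0.10), and without control library 3 its change was -0.0045.

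Partners of these genes that the name rule does not reach were also mostly higher in tau, without passing the test. Of 8 further nuclear genes of complexes III, IV and V, 7 were tested, all 7 had a positive log2 change and 0 passed the limma test (1 at an unadjusted p under 0.05). The gene not tested, *Cyt-c1L*, was too low and is by its name a "-like" paralog of *Cyt-c1*. Over all tested genes 45.3% had a positive change, 6.09% lay wholly higher in tau and 8.15% had an unadjusted limma p under 0.05. The 7 tested genes lie at 300 to 1300 TPM. Of the 307 genes there outside the set, 55.4% had a positive change, 17.9% lay wholly higher and 102 had an unadjusted limma p under 0.05. *blw*, the alpha subunit that alternates with *ATPsynbeta*, had a log2 change of 0.03, and *RFeSP*, the Rieske iron-sulfur protein of complex III, had 0.14. The 1 that separated was *sun*, the epsilon subunit of ATP synthase, with 495, 519 and 443 TPM in controls and 615, 635 and 636 TPM in tau (log2 change 0.38, SE 0.110, limma adjusted p = 0.198). The soluble electron carrier between complexes III and IV, cytochrome c, is encoded in somatic cells by *Cyt-c-p*, which had 662, 632 and 689 TPM in controls and 807, 889 and 856 TPM in tau (log2 change 0.36, SE 0.101, limma adjusted p = 0.167). Both changes were larger than that of any subunit in the set, and both missed the threshold.

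The list of 7 carriers and cytochrome c genes had 3 positive changes and 0 calls (2 at an unadjusted limma p under 0.05), with the main ADP/ATP carrier *sesB* at 0.01 and the phosphate carriers *Mpcp2* and *Mpcp1* at -0.0003 and 0.45 on the log2 scale. Of 4 assembly and regulatory genes, 0 passed and 1 had an unadjusted limma p under 0.05, namely *CG34423*, annotated by homology as an inhibitor of ATP synthase, at 76.9, 92.1 and 82.0 TPM in controls and 130, 137 and 110 TPM in tau (log2 change 0.58, SE 0.167, limma adjusted p = 0.189). The 6 mitochondrially encoded genes of complexes III, IV and V also gave 0 calls (0 at an unadjusted limma p under 0.05). Their sum was highest in tau library 1 (86952 TPM) and control library 3 (78537 TPM) and lay between 58682 and 65821 TPM in the other 4 libraries, so its values did not split by genotype. Of 40 nuclear complex I genes, the set most like this one, 35 were tested, 27 had a positive change, the median log2 change was 0.12, 10 lay wholly higher and 2 wholly lower, and 0 passed (1 at an unadjusted limma p under 0.05). Over all tested genes 45.3% had a positive change, 6.09% lay wholly higher and 6.93% wholly lower in tau. An unadjusted limma p under 0.05 was found for 8.15% of all tested genes. It was more frequent among abundant genes, with 102 of the 307 other genes at 300 to 1300 TPM. The comparison with complex I uses the same 6 libraries and is no independent evidence.

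Other tissue markers moved with the subunits in part. The 11 sarcomere genes listed as muscle markers had a positive log2 change in 10 of 11, with a median of 0.35 and 0 calls by limma (4 at an unadjusted p under 0.05). Over all tested genes 45.3% had a positive change and 8.15% an unadjusted limma p under 0.05. Their sum was 1997, 1645 and 1672 TPM in controls and 1880, 2465 and 2341 TPM in tau, so tau library 1, whose subunit sum was also the lowest of its genotype at 18547 TPM, lay within the control range. The other tau libraries had 19078 and 19154 TPM of subunits, and the controls 18124, 17892 and 16940 TPM. The neuronal markers summed to 557, 540 and 422 TPM in controls and 351, 569 and 559 TPM in tau, and 2 of the 5 tested had a positive change. Of the 6 glial markers 5 had a positive change, with a median of 0.12, and their sums of 806 to 987 TPM in controls and 776 to 1087 TPM in tau overlapped.

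A pair of very abundant markers had larger changes than any subunit, also without passing the test. *ninaE*, the major rhodopsin, had 22549, 25227 and 22986 TPM in controls and 27891, 28204 and 33183 TPM in tau (log2 change 0.33, SE 0.077, limma adjusted p = 0.0710). The 7 photoreceptor markers, 3 of them with a positive change and 4 with a negative one, summed to 36913 to 41207 TPM in controls and 41448 to 49132 TPM in tau, a ratio of means of 1.15. Most of this sum was *ninaE*, the only 1 of the 7 that separated. The next most abundant, *Arr2* and *Arr1*, had log2 changes of -0.03 and -0.04 with overlapping libraries. *Yp3*, a yolk protein gene, lay lower in all tau libraries, with 15226, 19356 and 16707 TPM in controls and 12694, 14311 and 10329 TPM in tau (log2 change -0.46, SE 0.113, limma adjusted p = 0.0875). The other yolk protein genes, *Yp1* and *Yp2*, had log2 changes of -0.03 and -0.15 with overlapping libraries. *Lsp2*, low at a control mean of 10.2 TPM, went the other way, also with overlap (log2 change 1.72, SE 0.636). The 7 fat body markers, 6 of them with a negative change, had a ratio of summed means of 0.846, with overlap, and the 4 haemocyte markers had 0.971. The part of these cell types in the subunit values was not tested.

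At the level of isoforms, 73 of the 93 were tested and 0 passed, where 0.758% of all 12800 tested isoforms did (0.492% higher and 0.266% lower in tau). The log2 change was positive for 47 of 73, against 46.2% of all tested isoforms, with medians of 0.09 and -0.03. At an unadjusted limma p under 0.05 there were 5 of 73, against 8.21% of all, and the fit without the trend gave 0. All tau libraries lay above all controls for 12 of 73 (6.5% of all isoforms) and below for 1 of 73 (6.89% of all). The tested isoforms are short, from 324 to 2750 nt in the Ensembl annotation, and 14 of the 41 genes have only 1 isoform in the table. Some isoforms cannot be resolved: *SdhA-RB* and *SdhA-RC*, which differ only within the 5′ untranslated region, were given identical values in every library.

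*ATPsynG* had the smallest adjusted p of the isoforms. The gene lies on chromosome 2L at 10975522 to 10976399 on the minus strand (dm6), and its 2 main isoforms encode the same protein, with a coding length of 297 nt. *ATPsynG-RB* starts at 10976399 and splices out an intron in the 5′ untranslated region, whereas *ATPsynG-RA* starts 36 bases further downstream, at 10976363, and keeps that stretch. *ATPsynG-RB* had 368, 424 and 402 TPM in controls and 545, 530 and 473 TPM in tau (log2 change 0.37, SE 0.110). Its unadjusted p by limma was 0.00614 and its adjusted p was 0.250, with a range over the alternatives of 0.138 to 0.749. *ATPsynG-RA* had 411, 370 and 331 TPM in controls and 307, 365 and 379 TPM in tau (log2 change -0.08, SE 0.129), with overlap. The upstream start, which the minor isoform *ATPsynG-RD* shares, held 47.9%, 54.2% and 55.2% of the gene in controls and 64.3%, 59.6% and 55.8% in tau, where the closest libraries of the genotypes almost met. *ATPsynF* also has 2 starts, which lie 24 bases apart. Reads start at the 3′ end, and how surely they tell such close starts apart was not tested for either gene. *ATPsynF-RA* had 352, 367 and 377 TPM in controls and 448, 444 and 465 TPM in tau (log2 change 0.31, SE 0.102, limma adjusted p = 0.342), and *ATPsynF-RB* had 291, 249 and 320 TPM in controls and 279, 304 and 263 TPM in tau. The share of *ATPsynF-RA* was 54.8%, 59.5% and 54.1% in controls and 61.6%, 59.3% and 63.9% in tau, so that, unlike the TPM of *ATPsynF-RA*, the shares overlapped.

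*COX4* had the only isoform of the set that was tested and lower in all tau libraries. Its 4 isoforms encode the same coding sequence of 546 nt on chromosome 2L and combine 2 starts with 2 annotated 3′ ends, at 19960004 and 61 bases further on at 19960065 (dm6, plus strand). *COX4-RB*, with the upstream start and the distal end, had 48.1, 44.5 and 54.8 TPM in controls and 35.5, 35.2 and 36.0 TPM in tau (log2 change -0.45, SE 0.192, limma adjusted p = 0.555). *COX4-RC*, with the same end and the other start, had 64.5, 54.0 and 42.3 TPM in controls and 44.7, 35.2 and 36.0 TPM in tau. Added together, the isoforms with the distal end held 10.8%, 10.2% and 9.90% of *COX4* in controls and 7.6%, 6.89% and 7.12% in tau.

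The 3′ end was examined in the same way for every gene of the set with more than 1 annotated end of at least 5 TPM. There were 11 such genes, and the share of the most distal end was lower in all tau libraries for 2 and higher for 0, where 6.36% of 1132 genes were lower and 6.36% higher. The second of the 2 was *ATPsynC*, whose distal end lies 625 bases beyond the proximal one. It held 36.1%, 34.4% and 33.0% of the gene in controls and 30.6%, 32.1% and 32.4% in tau. Both genes were singled out after their values were seen, and the exact permutation p of each is 0.1, the smallest possible. Of 13 genes with more than 1 annotated start, the share of the most downstream start was higher for 1 and lower for 1, with 4.19% and 5.23% of 1529 genes. In limma's test of isoform shares 0 of 56 member isoforms passed, where 0% of 5371 did, and 1 of 56 had an unadjusted p under 0.05, namely *COX4-RB* (log2 odds change -0.52, SE 0.197, adjusted p = 0.680), against 7.11% of all.

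**Figure D4:**
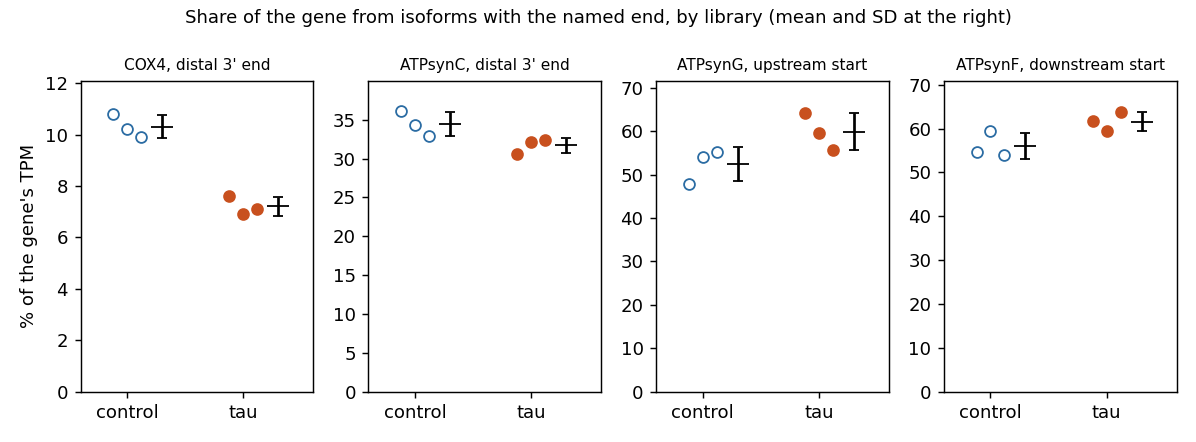
Points give, for each library, the percent of a gene's TPM from isoforms with the end named above the panel, on axes that start at 0, and bars the mean and SD (n = 3). The *COX4* distal end held 10.3% ± 0.449 in controls and 7.2% ± 0.360 in tau with a gap between genotypes. The *ATPsynC* and *ATPsynG* panels show smaller gaps, and the *ATPsynF* libraries overlap.

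The 12 paralogs were far below the genes they resemble. *COX4L* had the highest level, with 38.4, 15.8 and 27.9 TPM in controls and 38.0, 24.1 and 13.7 TPM in tau, which was 1.33% to 3.55% of the summed *COX4* and *COX4L* TPM. *COX7AL* had 29.6, 10.5 and 10.5 TPM in controls and 32.1, 16.5 and 14.6 TPM in tau, the largest positive change of complex IV (log2 change 0.39, SE 0.425, limma adjusted p = 0.914). Both vary more among libraries of a genotype than between genotypes. *COX5BL* and *COX7AL* lie next to the genes they resemble, 122 bases from *COX5B* on chromosome 2L and 2625 bases from *COX7A* on chromosome 3R.

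The most negative changes of complexes III, IV and V were paralogs as well. *UQCR-11L* had 15.4, 2.63 and 10.5 TPM in controls and 4.38, 5.26 and 2.93 TPM in tau (log2 change -0.79, SE 0.605), and it passed 3 reads in 3 of 6 libraries. *COX6AL*, which resembles *levy*, had 11, 6.58 and 10.5 TPM in controls and 16.1, 3.76 and 4.88 TPM in tau (log2 change -0.37, SE 0.521). *ATPsynGL* had 14.3, 3.95 and 12.2 TPM in controls and 11.7, 5.26 and 3.90 TPM in tau (log2 change -0.45, SE 0.546). Their intervals are several times wider than those of the subunits, and each of these 3 holds a 2-fold fall as well as no change. *SdhBL* and *UQCR-14L* had log2 changes of 0.22 and -0.44, with standard errors of 0.678 and 0.677, and *COX5BL* had 0.03 with 0.491.

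The other 4 paralogs were too low to test. *ATPsynCF6L* was listed at 0 in 5 libraries and at 0.976 TPM, the worth of 1 read, in tau library 3. *ATPsynbetaL*, *ATPsynepsilonL* and *SdhAL* had at most 3.29, 3.90 and 3.01 TPM in any library. A value of 3 reads or fewer, 2.26 to 5.24 TPM by library, was not told from 0, and these limits cover counting error only. By that measure *ATPsynbetaL* and *ATPsynCF6L* were above the limit in 0 of 6 libraries, *SdhAL* in 1 and *ATPsynepsilonL* in 2.

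The paralogs varied together from library to library. Control library 1 held the highest value of its genotype for 7 of the 8 tested paralogs and control library 2 the lowest for 6 of 8, while tau library 1 held the highest of its genotype for 6 of 8 and tau library 3 the lowest for 6 of 8. Summed over all 12, they had 160, 59.2 and 94.2 TPM in controls and 140, 82.0 and 62.5 TPM in tau. A list of 18 transcripts of the male germ line, put together after these values were seen, summed to 1472, 671 and 1099 TPM in controls and 1186, 898 and 749 TPM in tau. The 2 sums rank the 6 libraries in the same order. The list holds protamine, sperm tail and sperm mitochondrial genes such as *Mst84Db*, *Mst77F* and *loopin-1*, 17 of its 18 genes were above the minimum of 5 TPM, and 1, *dj*, was listed at 0 throughout.

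Transcripts of the male accessory gland, *SP*, *Acp26Aa* and *Acp36DE*, were present too, at a sum of 288 to 552 TPM. Their highest library was tau library 1, whereas that of the germ line list was control library 1. The libraries are labelled as heads, and what part of the paralog levels came from RNA of other body parts was not tested. *Cyt-c-d*, the cytochrome c gene used in sperm, had 27.5, 14.5 and 29.7 TPM in controls and 27.8, 13.5 and 5.86 TPM in tau, again with its low values in control library 2 and tau libraries 2 and 3.

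**Figure D5:**
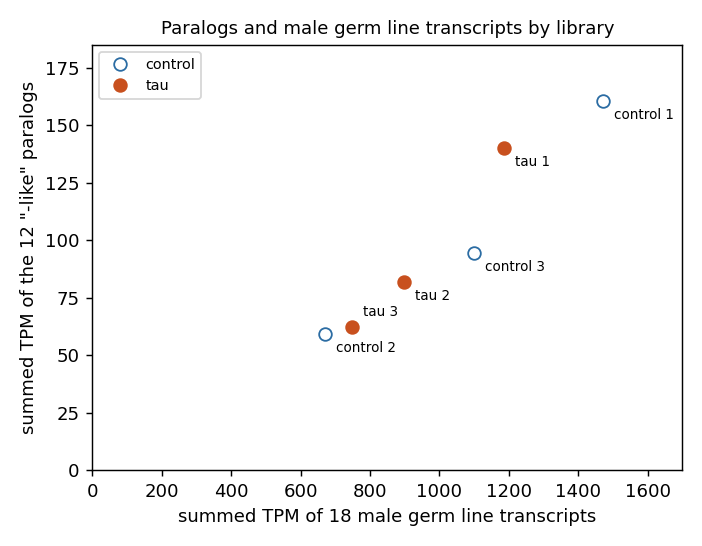
Each point is a library, placed by the summed TPM of 18 male germ line transcripts (horizontal) and of the 12 paralogs (vertical), both axes starting at 0, with open circles for controls and filled circles for tau. The libraries run in the same order on both axes, from control 2 (671 and 59.2 TPM) to control 1 (1472 and 160 TPM), and the genotypes are interleaved.

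The 41 genes share few other features. They lie on 6 chromosome arms, with 15 on 3R and 4 on X. In the annotation 14 overlap a gene on the opposite strand and 7 a gene on the same strand. Reads were mapped to transcripts and counted at NanoCount's default settings, and what these do with reads of the opposite strand was not tested, so the values of overlapping genes such as *SdhB* and *CG15237* are uncertain.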

How the data were processed

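PolyA-enriched RNA of 3 control and 3 tau head pools was sequenced with the direct RNA kit. The authors called bases with Guppy, kept reads of quality 9 or more, mapped them to FlyBase transcripts using minimap2 and estimated isoform abundance with NanoCount. The deposited values are TPM (reads scaled to the same total in each library) per isoform. Deposited columns of the authors' own DESeq2 comparison were not used, nor were the 6 short-read control samples. The labels name genome build dm6.

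TPM were summed per gene. The 37 rows with no gene held at most 0.0646% of TPM and stayed out of gene sums. Genes whose TPM averaged 5 or more entered a fit in limma 3.58.1 (R 4.3.3) on log2(TPM + 1), with eBayes and trend, two-sided, and Benjamini-Hochberg adjustment over all of them. A log2 change on this scale understates that of low genes. Isoforms were tested alike, and isoform shares as log2 odds in genes of at least 20 TPM. Only 41.3% to 43.8% of values were whole multiples of 1 read (tolerance 0.005 reads), so no count test was run. Gene and isoform positions come from the Ensembl annotation of the same assembly, which held all 93 isoforms. Reads start at the 3′ end, so 5′ ends are read less surely.

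Libraries are separate head pools by their labels, and p-values measure the spread between them. The members, lists and tests were chosen with earlier results of these data known. Named genes were, for each complex, the highest and the tested members with the largest rise and fall, every "-like" paralog with the gene it resembles, the 6 most abundant genes with resolved isoforms, and the main isoform of each; other genes, and the male lists, were named after their values were seen. Alternatives were pseudocounts of 0.5 and 5 TPM, no filter, a filter of 20 TPM, median-of-ratios scaling, no trend, merged identical isoforms, a replicate block and each library left out. Deviations of same-numbered libraries gave r of -0.0027, 0.0651 and -0.0721, within the -0.146 to 0.158 of pairs with unlike numbers. The main fit therefore did not pair them, but 3 libraries per genotype cannot exclude a preparation shared by number.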

Additional observations from a re-analysis of the deposited data

How the results depend on the processing

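No member gene, isoform or isoform share passed the threshold under any alternative tried. With the replicate number as a block the counts were again 0, 0 and 0, and the median log2 change of the 37 genes was 0.10; over all genes 77 passed in place of 97, and over all isoforms 100 in place of 97. The calls over all genes ranged from 4 (no trend) to 104 (pseudocount of 5 TPM), and 42 passed with no filter; over all isoforms 5 passed without the trend and 0 with no filter, and over all shares 3 passed with a filter of 20 TPM in place of 0. With median-of-ratios scaling the median log2 change was 0.13 over all members, 0.21 for complex III and 0.12 for complex V, and with no filter it was 0.12 for complex II. When 1 library was left out, the median ran from 0.037 (without control 3) to 0.13 (without control 1) over all members, from -0.12 (without control 3) to 0.056 for complex II, from 0.030 (without control 3) to 0.16 (without tau 3) for complex IV and from 0.037 (without control 3) to 0.12 (without tau 1) for complex V, and the count of genes with all tau libraries above all controls, an alternative chosen after seeing the data, from 9 to 15; the count with all tau libraries below ran from 0 to 4 (without control 2). Genes named by the rule whose sign turned when 1 library was left out, none of them called, were *ATPsynC* (-0.0045 to 0.14), *ATPsynbeta* (-0.046 to 0.036, and 0.033 with median-of-ratios scaling), *COX4L* (-0.48 to 0.22), *COX5BL* (-0.37 to 0.50), *SdhBL* (-0.49 to 0.80) and *UQCR-14L* (-1.15 to 0.0068). The same held for the isoforms *ATPsynbeta-RC* (-0.068 to 0.038, and 0.039 with median-of-ratios scaling), *COX5B-RB* (-0.011 to 0.13) and *SdhA-RA* (-0.069 to 0.33). Over all alternatives, signs also turned for *COX6B* (-0.0089 to 0.11), *ATPsyngamma* (-0.045 to 0.032), *ATPsynD* (-0.059 to 0.039) and the isoforms *ATPsynF-RB* (-0.12 to 0.063) and *ATPsynG-RA* (-0.16 to 0.0096). The cause was not tested. The paralogs were measured least precisely, with a median standard error of 0.53 against 0.11 for the subunits. Their median coefficient of variation over controls was 66.4%, where counting error at this depth gives 42.0%.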
